A study of Gallus gallus with 9 samples.

Results

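In the chick dorsal mesentery, the stage means of 63 genes declined at least 2-fold in each of 2 intervals of small intestinal looping, out of 14172 genes with enough reads and 24356 in the deposited count table. They were chosen by their levels in CPM (the reads of a gene set to a common total of reads in genes, here after scaling of the libraries with TMM factors). A gene was a member if its mean was at least 10 CPM at embryonic day 8 (E8), if its E12 mean was at most 0.5 times its E8 mean, and if its E16 mean was at most 0.5 times its E12 mean. All 9 libraries were poly(A) RNA from wild type White Leghorn mesentery, with 3 libraries at each of E8, E12 and E16, and each library was a pool of tissue from 3 embryos. The gut tube and the superior mesenteric artery had been taken off before freezing. The pools were separate at each stage, so the p-values below measure the spread between pools and not between single embryos.

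The dorsal mesentery is the sheet of mesodermal tissue that ties the gut tube to the dorsal body wall. The tube grows faster than the sheet, and the stretched sheet makes the tube buckle into loops. The growth and the stiffness of the mesentery thus help to set the loops. Looping starts at E8, is in progress at E12 and has ended by E16, and the study asked which genes change in the mesentery over that time. The tissue holds mesenchyme, a covering mesothelium, vessels and nerves. In such bulk tissue, fewer cells of a type and less RNA per cell cannot be told apart.

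The count table gives Ensembl gene IDs without symbols, and 0 of the 24356 IDs matched the RefSeq gene table of 25635 chicken genes used here. Members are therefore described by ID or by their rank in E8 level, with no gene name, function or position. The gene lists drawn up for signalling pathways, matrix, cell cycle and cell types, and the check of the tissue label against marker genes, could not be applied. Total gene counts lay between 22.96 and 30.62 M (mega) per library. Reads outside annotated features made up, as mean ± SD of 3 libraries, 20.04% ± 0.317 of the E8 reads, 13.69% ± 2.79 of the E12 reads and 19.34% ± 0.948 of the E16 reads.

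Genes that declined in both intervals were a small part of those that were lower by E12. Of 9962 genes with an E8 mean of at least 10 CPM, 1050 were at 0.5 times their E8 level or below at E12. From there, 63 of them (6.0%) went down by the same factor again, 533 (50.8%) stayed within 2-fold of their E12 level at E16, and 454 (43.2%) were at least 2-fold higher at E16 than at E12. Among all 9962 genes, 876 had an E16 mean of at most 0.5 times the E12 mean, and these include the 63. Such a decline after E12 was thus no more frequent among the 1050 than among all 9962. The E12 mean enters both ratios, so a choice of genes low at E12 favours a rise by E16. These shares were not tested. The mirror image of the rule, with an E16 mean of at least 10 CPM and each earlier stage at most 0.5 times the next, took 160 genes.

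**Figure D1:**
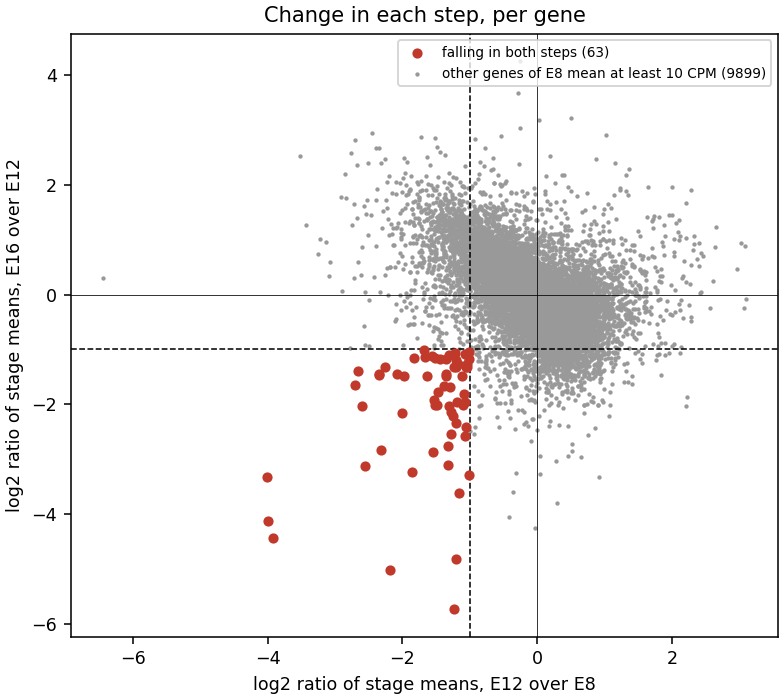
Log2 ratio of stage means for E12 over E8 (horizontal axis) and E16 over E12 (vertical axis), 1 point per gene with an E8 mean of at least 10 CPM; dashed lines mark the 2-fold limits of the rule. The 63 chosen genes fill the lower left corner by construction. In the upper left lie 454 genes that were at least 2-fold down by E12 and rose at least 2-fold by E16, a level that no line marks.

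Together the 63 genes took 0.475% ± 0.0223 of all counted reads in the E8 libraries, 0.153% ± 0.0191 in the E12 libraries and 0.0542% ± 0.00523 in the E16 libraries (SD, n = 3 each). Their summed level was 4171, 4419 and 4351 CPM in E8 replicates 1, 2 and 3, then 1698, 1548 and 1668 CPM at E12, and 523.5, 610.8 and 531.2 CPM at E16. The libraries of the 3 stages did not overlap in this sum, which the choice of members fixes. The most abundant member alone held 28.7% of the sum at E8, 36.6% at E12 and 44.9% at E16. Without it the sum averaged 3077 CPM ± 302 in the E8 libraries, 1038 CPM ± 23.6 in those of E12 and 306.1 CPM ± 39.2 in those of E16 (SD, n = 3 each).

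Most members were expressed at a moderate level. Their E8 means ran from 10.06 to 1236 CPM with a median of 41.98, close to the median of 43.04 over all 9962 genes above the same minimum. An E8 mean of at least 100 CPM was reached by 7 members, and 20 members lay below 20 CPM. At E12 the members' means ran from 2.60 to 599.8 CPM with a median of 11.9, and at E16 from 0.152 to 249.1 CPM with a median of 2.67. By E16, 15 members averaged below 1 CPM and 11 still averaged at least 10 CPM. Every member kept at least 1 read in each E16 library, and the member with the fewest had 11 reads over the 3 E16 libraries, so each fold below has a measured E16 level under it.

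**Figure D2:**
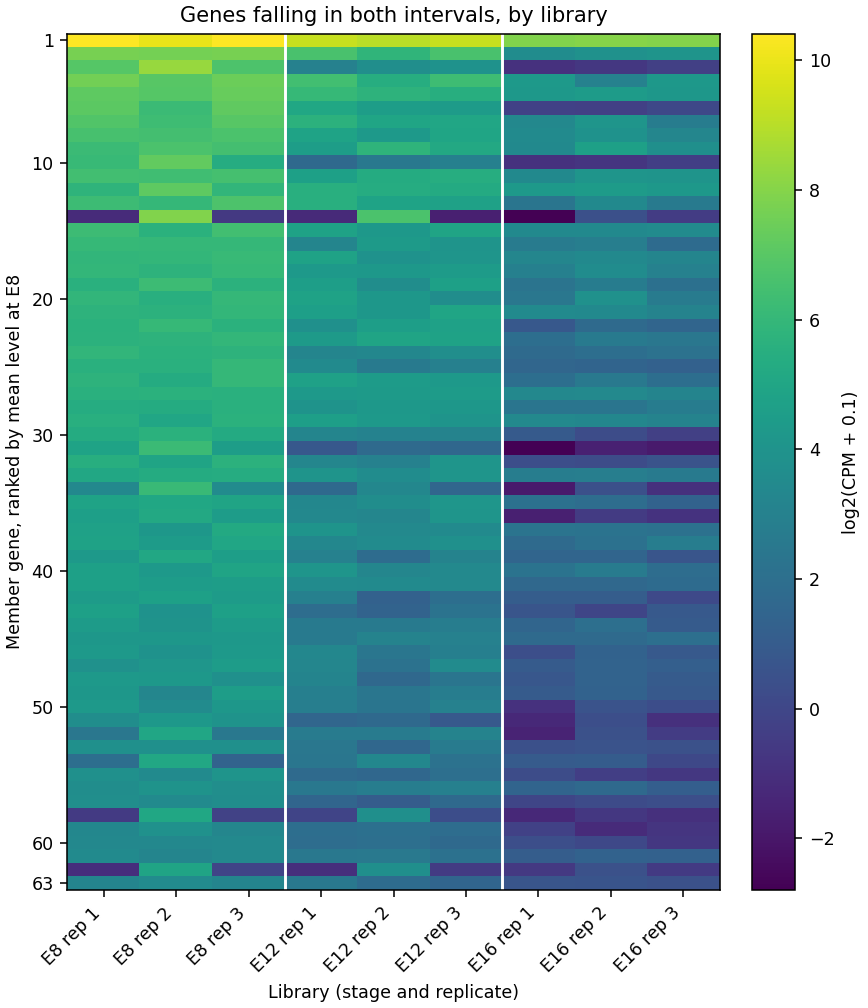
Level of each of the 63 genes (rows, ranked by mean E8 level from the top) in each of the 9 libraries (columns, by stage and replicate), as log2(CPM + 0.1). Colour darkens from E8 through E12 to E16 in nearly all rows, and at ranks 14, 58 and 62 the high values lie in replicate 2 of E8 and of E12.

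The most abundant member was ENSGALG00000010448. It was measured at 1342, 1005 and 1363 CPM in E8 replicates 1, 2 and 3, at 633, 528 and 638 CPM at E12, and at 241, 259 and 247 CPM at E16. No library of one stage reached the range of the stage before it. Its log2 change in edgeR's fit was -1.04 (SE 0.14) by E12 relative to E8 and -1.27 (SE 0.14) by E16 relative to E12, so that its decline was nearly even over both intervals.

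The second most abundant was ENSGALG00000042492, with 210, 199 and 206 CPM at E8, 97.9, 57.0 and 98.2 CPM at E12, and 12.2, 14.8 and 16.4 CPM at E16. Its E8 libraries lay close together, and at E12 replicate 2 was well below the other two. The stages did not overlap. Here the later interval was the steeper, with a log2 change of -1.28 (SE 0.19) for E12 over E8 and -2.54 (SE 0.20) for E16 over E12.

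The size of the decline differed widely between members. Levels at E16 were 4.15 to 327 times lower than at E8, with a median of 10.7 times. In 7 members the E16 level was at least 50 times lower, and in 5 of them at least 100 times lower. Of the 7, those ranked 3, 10, 14, 31 and 34 by E8 level had E8 replicate 2 at least 2-fold above both other E8 libraries. Those ranked 6 and 36 did not. The member ranked 14 was near 0 in the other E8 libraries and is described below. The largest decline was that of the member ranked 3 by E8 level. It had 120, 329 and 105 CPM in E8 replicates 1, 2 and 3, 7.93, 13.3 and 15.4 CPM at E12, and 0.436, 0.536 and 0.726 CPM at E16. Its 3 stages were far apart, although E8 replicate 2 stood well above the other E8 libraries. The smallest decline was that of the member ranked 12, with 55.6, 138 and 59.2 CPM at E8, 46.6, 41.1 and 38.3 CPM at E12, and 20.03, 22.03 and 18.9 CPM at E16. In that gene E8 replicate 2 again exceeded the other E8 libraries, which were not far above E12.

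Steadiness also varied. In 28 members the log2 changes of the 2 intervals lay within 0.5 of each other. In 24 members the later interval was steeper by more than 0.5, and in 11 the earlier one. A difference of more than 1 on the log2 scale was found in 13 members with the steeper decline after E12. It was found in 2 with the steeper decline before E12. The 13 include the members ranked 14, 52, 58 and 62, described below, whose E8 means rested on replicate 2. The member ranked 6 is an example of a late drop, with 136, 73.6 and 148 CPM at E8, 33.5, 23.5 and 21.8 CPM at E12, and 0.742, 0.727 and 0.953 CPM at E16. An early drop was seen in the member ranked 25, with 47.7, 48.3 and 64.0 CPM at E8, 11.3, 5.85 and 7.52 CPM at E12, and 2.84, 2.68 and 2.36 CPM at E16. The replicates of both examples kept the stages apart.

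As a list, the members had a median log2 change of -1.35 for E12 over E8 and -1.68 for E16 over E12, where the medians over all 14172 genes were -0.01 and -0.01. In edgeR's quasi-likelihood fit over all genes, at a Benjamini-Hochberg adjusted p under 0.05, 58 of the 63 members were lower at E12 than at E8, against 28.2% of all genes. Between E12 and E16, 59 members were called lower, against 28.3% of all genes. For the whole interval, E16 against E8, the count was 60, against 27.7% of all genes. Both intervals were called lower for 58 members and for 2.6% of all genes. These contrasts chose the members, so the counts describe the list and support nothing. The same holds for the counts of members called in other fits. All 3 comparisons draw on the same stage libraries, and an E12 library enters both intervals.

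The libraries of the stages were fully separated, each E8 value above each E12 value and each E12 value above each E16 value, in 56 of the 63 members and in 4.12% of all genes. Of the other 7, the 5 described next were not called in both intervals, and the members ranked 9 and 20 were called in spite of an overlap. In a fit that also held each library's percentage of unannotated reads, 7 members and 12 genes in all were called lower in both intervals. The members' median log2 change in that fit was -1.34 for E12 over E8 and -1.86 for E16 over E12. The median was thus about as large while most calls were lost, but single members moved. For E12 over E8, ENSGALG00000042492 went from -1.28 to -0.68 and ENSGALG00000010448 from -1.04 to -0.76. For E16 over E12 they became steeper, at -3.06 and -1.52. The percentage of unannotated reads was lowest at E12, and in both intervals it cannot be told apart from the stage.

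The 5 members not called in both intervals are ENSGALG00000027269, ENSGALG00000031920, ENSGALG00000029617, ENSGALG00000022557 and ENSGALG00000002108, and they are named here after their values were seen. In each of them the E8 mean rested on replicate 2. ENSGALG00000027269 had 0.342, 237 and 0.549 CPM in E8 replicates 1, 2 and 3, 0.335, 101 and 0.217 CPM at E12, and 0.0436, 1.22 and 0.635 CPM at E16. It was thus at or below 1.22 CPM in 7 libraries and abundant in replicate 2 of E8 and of E12, and the libraries of the 3 stages overlapped.

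ENSGALG00000022557 had the same form at a lower level, with 0.570, 33.2 and 0.762 CPM at E8, 0.836, 13.4 and 1.16 CPM at E12, and 0.305, 0.536 and 0.408 CPM at E16. So did ENSGALG00000002108, with 0.380, 29.6 and 0.823 CPM at E8, 0.401, 13.6 and 0.615 CPM at E12, and 0.567, 1.30 and 0.590 CPM at E16. In replicates 1 and 3 neither of these genes exceeded 1.16 CPM at any stage. In the fit with the percentage of unannotated reads, the log2 changes of ENSGALG00000027269 were -23.29 for E12 over E8 and 14.44 for E16 over E12. Those of ENSGALG00000022557 were -7.15 and 1.98, and those of ENSGALG00000002108 were -9.01 and 4.95. None of these changes was called (edgeR adjusted p 0.34 to 0.738). They rest on 1 library at each of E8 and E12, so no rise after E12 was read from them. For these 3 genes the data go against a steady fall in the tissue at large, since the decline is that of 1 library at each of E8 and E12.

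ENSGALG00000031920 differed from them. It had 5.25, 32.2 and 5.49 CPM at E8, 6.29, 6.46 and 8.61 CPM at E12, and 0.262, 1.30 and 0.635 CPM at E16. Its E12 libraries all exceeded E8 replicates 1 and 3, and its E16 libraries all lay below E12. ENSGALG00000029617 had 3.84, 35.2 and 2.56 CPM at E8, 5.22, 9.81 and 4.38 CPM at E12, and 1.88, 1.95 and 0.953 CPM at E16. Without E8 replicate 2, the log2 change in E12 against E8 turned positive for both, at 0.45 for ENSGALG00000031920, which was not called, and 1.06 for ENSGALG00000029617, which was called higher at E12 in edgeR's fit. In both genes every E12 library exceeded E8 replicates 1 and 3, so these values already set the sign. The call rests on E8 replicates 1 and 3 alone and was read after the values were seen.

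**Figure D3:**
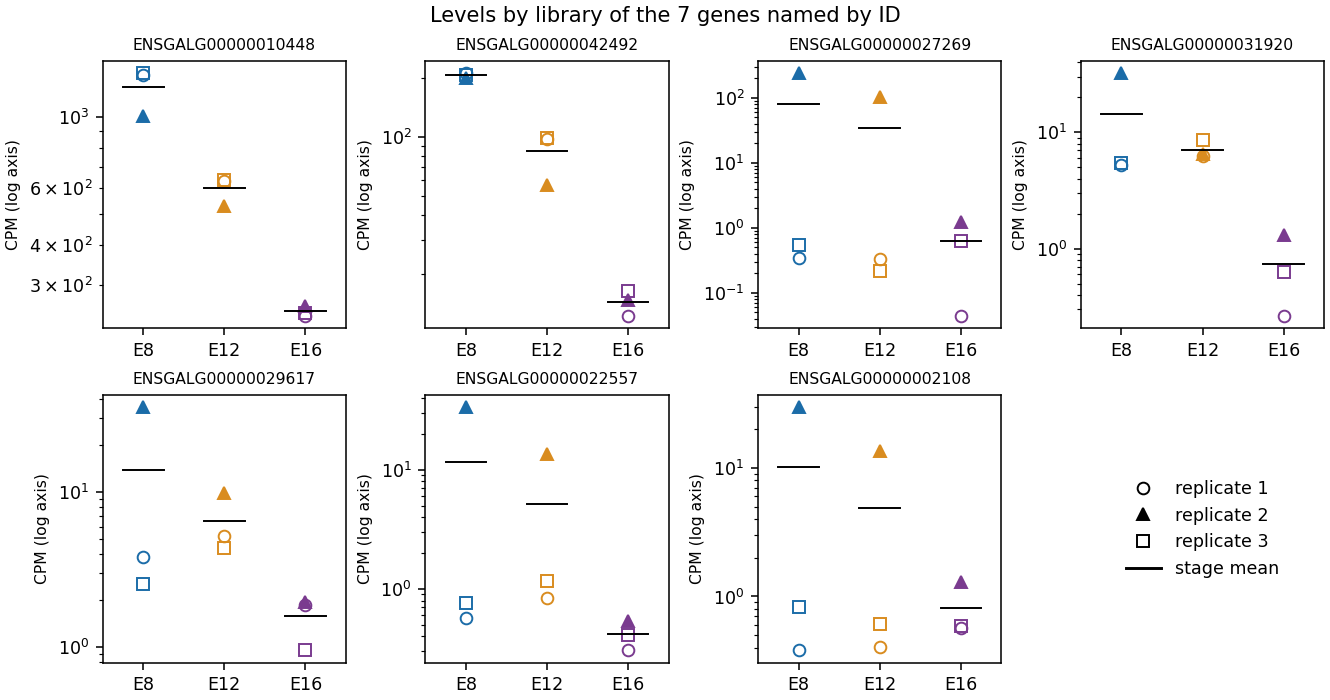
CPM on a log axis at E8, E12 and E16 for the 7 genes named by ID; symbols are replicates, and the short line is the stage mean. The first 2 panels show stages that do not overlap, and the other 5 show E8 replicate 2 (filled triangle) far above the other E8 libraries.

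Replicate 2 of E8 stood apart in members beyond these. It was at least 2-fold above both other E8 libraries in 10 of the 63 members (15.9%), against 75 of the 9962 genes with an E8 mean of at least 10 CPM (0.753%), 13 of the 533 genes that were down by E12 and then held (2.44%) and 2 of the 454 that were down by E12 and then rose (0.441%). In the 160 genes of the rising mirror image it was so in 11 (6.88%). E8 replicates 1 and 3 were so in 0 members, and in 1 and 0 of the 9962 genes. These shares were not tested. A single high library raises the E8 mean, which is part of the rule. Of the 10 members, 5 were still called lower in both intervals, and all of the 53 others were.

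By the order of the libraries, the members differed little from other genes in E8 replicate 2. Their median level and their sum without the most abundant member were highest there, although it was more often a member's lowest E8 library than its highest. The members' median was 29.6, 39.4 and 37.0 CPM in E8 replicates 1, 2 and 3, and their sum without the most abundant member was 2829, 3414 and 2988 CPM. E8 replicate 2 was the highest E8 library for 36.5% of members and for 34.3% of the 9962 genes, and the lowest for 50.8% of members and 48.1% of those genes. At E16, replicate 2 was the lowest library for 11.1% of members and 35.8% of those genes, and at E12 replicate 3 was the highest for 44.4% of members and 21.1% of those genes. At E12 replicate 2 was at least 2-fold above both other libraries in 4 members (6.35%) and in 0.13% of the 9962 genes, and at E16 in 5 members (7.94%) and in 0.211% of those genes. Over all 9962 genes E12 replicate 1 was so most often, in 86 (0.863%), but in 0 members. A high E12 library raises the E12 mean, which works against the first limit of the rule and toward the second. These shares were not tested.

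**Figure D4:**
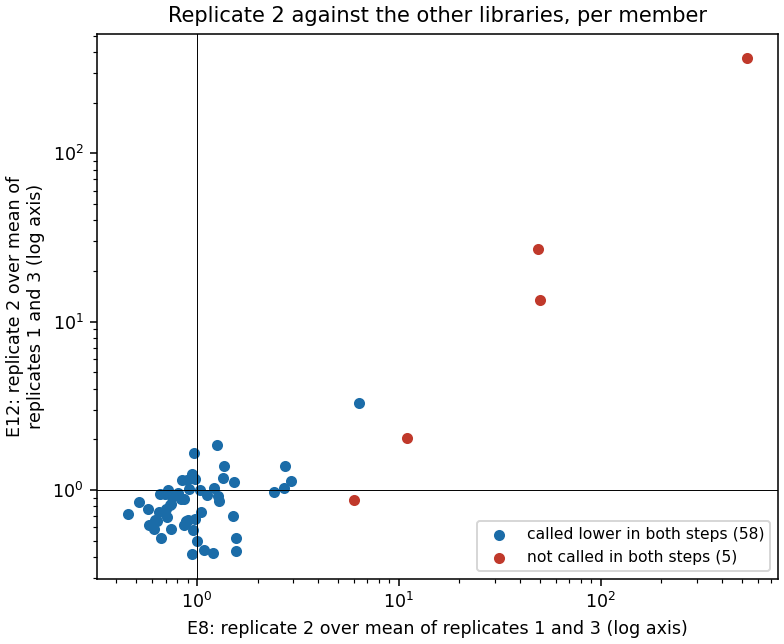
Level in replicate 2 divided by the mean of replicates 1 and 3, at E8 (horizontal) and at E12 (vertical), both on log axes, 1 point per member. Most members lie near 1 on both axes, and 3 of the 5 members not called in both intervals are over 10 times higher in replicate 2 at both stages, the largest ratios being 532 at E8 and 367 at E12.

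In the median gene, replicates were further apart among the members than among the other genes of that abundance at E8, a difference that was not tested. The median coefficient of variation (SD over mean, n = 3 per stage) was 18.3% within E8, 28.0% within E12 and 25.6% within E16 for the members, against 7.55%, 15.1% and 10.3% for the 9962 genes. At E12 and E16 the levels were unlike, with medians of 11.9 and 2.67 CPM for the members and 41.85 and 41.82 CPM for the 9962 genes. At E8, where the median levels of the members and of those genes were alike, the highest library was less than 2-fold above the lowest in 50 of the 63 members. The tightest was the member ranked 53, with 14.22, 14.17 and 14.15 CPM at E8. Among the genes that were down by E12 and then held, the medians were 10.4%, 22.9% and 14.1%, and among those that were down by E12 and then rose they were 8.91%, 30.3% and 16.0%. The 160 genes of the rising mirror image had 20%, 19.5% and 16.7%. At E8 only this set was as wide as the members, and its median E8 level was much lower, at 3.255 CPM. At E12 the genes that then rose were as wide as the members, at a like median level of 11.93 CPM. The genes that held had median levels of 34.6 CPM in E8, 13.6 CPM in E12 and 18.3 CPM in E16 libraries, so that at E16 they were better counted than the members.

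To read the decline in libraries that had no part in the choice, the rule was applied to the 6 libraries of 2 replicate numbers and the third set was then examined. The third set shares with the others any difference that goes with stage, such as the lower percentage of unannotated reads at E12. The 63 members themselves were chosen on all 9 libraries, so these shares are a description and no test of them. The genes above the minimum, given for comparison, include the chosen genes. With replicate 1 left out, 57 of those genes met both limits, and 38 of the 57 were chosen genes. Without the replicate 1 libraries, 59 genes were chosen, of which 52 were among the 63. In the replicate 1 libraries, 38 of the 59 (64.4%) were at most 0.5 times the previous stage in both intervals, against 0.576% of the 9898 genes with an E8 mean of at least 10 CPM in the other libraries. Some decline in both intervals was found for 52 of the 59 (88.1%), against 23.4% of those genes.

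With the replicate 3 libraries left out the outcome was close to this. The rule chose 63 genes, 51 of them among those reported, and 40 (63.5%) met both limits in the replicate 3 libraries, against 0.721% of the genes above the minimum. A decline in both intervals was found for 56 (88.9%), against 16.2%.

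Leaving out the replicate 2 libraries gave 65 genes, 50 of them among those reported. In the replicate 2 libraries 64 of the 65 (98.5%) declined in both intervals, against 13.7% of the genes above the minimum, while 25 (38.5%) met both 2-fold limits, against 0.364%. The median log2 change in the replicate 2 libraries was -1.33 for E12 over E8 and -1.15 for E16 over E12. In the replicate 1 libraries these medians were -1.42 and -1.79, and in the replicate 3 libraries -1.41 and -1.84. The E12 library left out enters both intervals. The libraries of one number came from separate pools, and the labels give no link between them beyond the number.

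**Figure D5:**
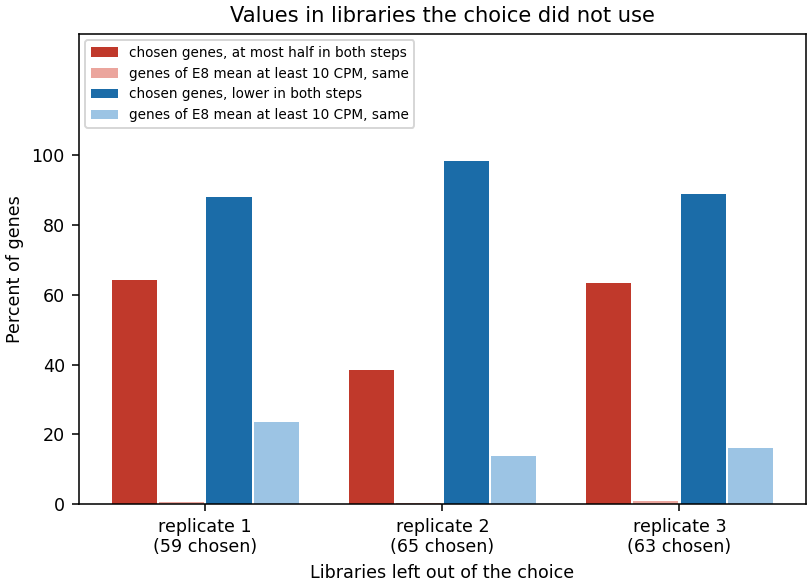
Percent of genes chosen without 1 replicate number that, in the libraries left out, were at most 0.5 times the previous stage in both intervals (red) or lower in both intervals (blue). Pale bars give the same for all genes with an E8 mean of at least 10 CPM, the chosen genes included. Chosen genes were lower in both intervals in 88.1%, 98.5% and 88.9% of cases, and met both limits in 64.4%, 38.5% and 63.5%.

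The limits of the rule cut through a continuous range of genes. The 3 members with the lowest E8 means had 10.06, 10.26 and 10.35 CPM, and the nearest genes left out for their E8 level had 9.95, 9.74 and 9.36 CPM. For E12 over E8, the 3 largest ratios inside were 0.499, 0.498 and 0.497, and the nearest outside were 0.501, 0.521 and 0.523. For E16 over E12, the largest inside were 0.496, 0.484 and 0.476, and the nearest outside were 0.502, 0.502 and 0.507. The last 3 include a gene more abundant than all but 1 member, with stage means of 289.3 CPM for E8, 129.6 CPM for E12 and 64.98 CPM for E16.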

How the data were processed

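Raw read counts per gene were deposited by the authors in 1 table, without normalization. The submitters' processing notes name HISAT2 2.2.1, HTSeq 0.13.5, cutadapt 3.1, FastQC 0.11.9, Trim Galore, DESeq2 and the build GRCg6a. The annotation release and the strand setting are not given in the sources used here, so counts of overlapping or near-identical genes are uncertain. The 5 rows of reads assigned to no gene, 31.6% to 36.6% of reads per library, were kept out of library sizes and tests.

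Genes with at least 1 CPM in 3 or more libraries were kept, and TMM factors and stage means were computed on them. A model of 3 stage means was fitted to all 9 libraries with edgeR 4.0.16 (R 4.3.3, quasi-likelihood F-test, robust, two-sided), with Benjamini-Hochberg adjustment over 14172 genes. Standard errors are the absolute log2 fold change over the square root of F. Libraries left out of the choice of genes were read on the scale of all 9. Members, lists and alternatives were chosen with earlier results of these data known. Without symbols, the rule for naming took the 2 members of highest E8 mean among those called in both intervals. Alternatives were DESeq2 1.42.0, limma-voom (limma 3.58.1), other scalings, filters and thresholds, libraries left out in turn, a replicate block and a covariate. The fit and the rule were also run on simulated counts, with genes made to decline equally in each interval by more than the 2-fold limit. The declining genes included none of low E8 level, none near the limits and no single high library. That run therefore cannot tell how such members are handled.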

Additional observations from a re-analysis of the deposited data

How the results depend on the processing

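The number of members was 171 with a 1.5-fold limit per interval and 10 with a 3-fold limit, and without 1 library in turn it ranged from 49 (without E12 replicate 1) to 71 (without E16 replicate 2). With total counts only as the scaling, 86 genes met the rule, 60 of them among the 63, and with DESeq2 size factors 58 did. Stage medians in place of means gave 49 genes, of which 48 were among the 63. Total counts put the median log2 change for E12 over E8 at -0.26 for all genes (-0.01 with TMM) and -1.59 for members (-1.35). The contrasts tested had chosen the members. With DESeq2's test 57 members and 356 of all genes were called lower in both intervals, and with limma-voom 57 and 365. Members called numbered 55 to 58 without 1 library in turn. With the percentage of unannotated reads as a covariate they numbered 7. Genes called lower were then 158 for E12 over E8, 1434 for E16 over E12 and 12 for both. The cause was not tested.

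Over all genes, 369 were called lower in both intervals, against 596 with total counts only and 176 at an adjusted p under 0.01. Without 1 library in turn this count ranged from 233 (without E8 replicate 3) to 364, with 236 without E8 replicate 1. Genes called lower numbered 3052 to 4319 for E12 over E8, 3238 to 4288 for E16 over E12 and 2765 to 3975 for E16 over E8. The replicate block gave 335 genes and 58 members lower in both intervals. Libraries of the same number did not all deviate together (correlations -0.161 to 0.193 over 9 pairs, and -0.376 to 0.286 for libraries of unlike number). The numbers were therefore not taken to pair libraries. Replicate 2 of E8 and replicate 2 of E12 had a correlation of 0.12, and 3 members described above were high in both. A link between these libraries was not tested. Under that block, ENSGALG00000027269, ENSGALG00000029617 and ENSGALG00000022557 were called lower in E16 against E12.

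With the covariate the log2 change in E16 against E12 turned positive, but uncalled, for ENSGALG00000027269 (14.44), ENSGALG00000022557 (1.98) and ENSGALG00000002108 (4.95). The earlier interval of ENSGALG00000010448 (-0.76) and ENSGALG00000042492 (-0.68) and the later one of ENSGALG00000031920 (-2.80) were no longer called. Without 1 E8 library in turn, the log2 change in E12 against E8 ranged from -1.35 to 0.45 for ENSGALG00000031920 and from -1.55 to 1.06 for ENSGALG00000029617, positive without replicate 2. In alternative fits (not the stricter p or changes to the rule), the members' median log2 change was -1.59 to -1.26 for E12 over E8. For E16 over E12 it was -1.86 to -1.60. It moved by less than 0.26 and 0.25, the SDs of a difference between single libraries. Depth limits the E16 levels of the 15 members below 1 CPM.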
